A study of Mus musculus with 8 samples.

Results

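Messenger RNA of 33 cell cycle and DNA replication genes was measured in molars of Wdr72 knockout (KO) and wild-type (WT) mouse pups. The genes were chosen by name from the deposited count table, which lists 54532 genes, and all 33 were found there. They comprised 21 genes used in mitosis and 12 genes used in DNA replication, and each passed the filter on low counts, as did 16205 genes in all. The KO group had 4 libraries (KO 1, 3, 4 and 5) from Wdr72-/- pups, of a colony obtained from the UC Davis Mouse Biology Center, and the WT group had 4 libraries (WT 2, 3, 4 and 5). Both groups were given as C57BL/6, and no treatment other than the genotype was named. The age was labelled postnatal day 12, while the dissection protocol gives day 13. The pulp was taken out of the first molars and what remained was homogenised whole, so the RNA can come from any tissue left on the tooth, although the samples are labelled as ameloblasts. The labels do not say whether a library came from 1 pup or several, so p-values measure the spread between these libraries only.

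Cells that divide copy their DNA in S phase and separate the copies in mitosis. The 6 MCM proteins form the ring that unwinds DNA at replication forks, PCNA is the clamp that holds DNA polymerase on its template, and ribonucleotide reductase and thymidylate synthase supply the nucleotides. Mitosis runs on cyclin B and CDK1, on the Aurora and Polo kinases, on kinesin motors of the spindle, and on the anaphase-promoting complex, which destroys cyclin B with the help of CDC20 and UBE2C. Ameloblasts, the epithelial cells that form enamel, leave the cell cycle before they secrete enamel, so dividing cells on a molar of this age are known mainly from other layers and from mesenchyme, bone and blood. WDR72 is a protein that ameloblasts need for the maturation of enamel.

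Genes of mitosis and of replication are known to be switched on through different promoter elements. Mitotic promoters often hold a CHR (cell cycle genes homology region), which binds the MuvB complex, near CCAAT boxes, which bind NF-Y, and replication promoters often hold E2F sites. The promoters of 6 members are shown to make this difference visible: Cdc20 and Ube2c were the mitotic members highest in KO 5 relative to the other KO libraries, Mki67 and Kif11 had the lowest fold changes, and Mcm5 and Mcm6 stand for replication. Each runs 5′ to 3′ from 250 bases before to 50 bases after the start of the gene (RefSeq, GRCm38.p6). Capitals mark matches, on either strand, to CCAAT, to the CHR letters TTTGAA or TTTAAA, and to the E2F letters TTTCCCGC, TTTGGCGC, TTTCGCGC or TTTGCCGC. Cdc20 lies at chr4:118437294-118437593 (minus strand), Ube2c at chr2:164769679-164769978 (plus), Mki67 at chr7:135716330-135716629 (minus), Kif11 at chr19:37376132-37376431 (plus), Mcm5 at chr8:75109259-75109558 (plus) and Mcm6 at chr1:128359656-128359955 (minus).
Cdc20: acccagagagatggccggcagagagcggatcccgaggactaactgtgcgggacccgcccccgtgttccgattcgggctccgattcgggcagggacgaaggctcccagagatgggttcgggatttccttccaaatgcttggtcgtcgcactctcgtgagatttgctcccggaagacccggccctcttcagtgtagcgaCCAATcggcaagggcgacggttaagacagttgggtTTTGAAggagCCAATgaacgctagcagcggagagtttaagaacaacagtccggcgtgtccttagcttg
Ube2c: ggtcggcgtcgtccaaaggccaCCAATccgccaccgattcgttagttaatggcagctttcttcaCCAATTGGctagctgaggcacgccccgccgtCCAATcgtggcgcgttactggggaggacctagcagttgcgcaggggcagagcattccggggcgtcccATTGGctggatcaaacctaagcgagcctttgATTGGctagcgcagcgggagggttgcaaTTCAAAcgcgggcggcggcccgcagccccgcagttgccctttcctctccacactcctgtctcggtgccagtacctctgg
Mki67: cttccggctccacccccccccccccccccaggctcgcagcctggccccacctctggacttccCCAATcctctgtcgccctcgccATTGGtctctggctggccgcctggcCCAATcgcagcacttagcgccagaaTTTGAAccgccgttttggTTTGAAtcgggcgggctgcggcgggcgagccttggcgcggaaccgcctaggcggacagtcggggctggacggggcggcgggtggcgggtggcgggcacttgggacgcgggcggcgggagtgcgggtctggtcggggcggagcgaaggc
Kif11: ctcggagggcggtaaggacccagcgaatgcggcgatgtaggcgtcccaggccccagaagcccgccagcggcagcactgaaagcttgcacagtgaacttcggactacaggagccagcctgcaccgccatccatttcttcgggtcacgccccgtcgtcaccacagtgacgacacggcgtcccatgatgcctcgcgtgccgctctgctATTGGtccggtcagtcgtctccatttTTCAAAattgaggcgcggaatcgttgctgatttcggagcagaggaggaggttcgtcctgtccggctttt
Mcm5: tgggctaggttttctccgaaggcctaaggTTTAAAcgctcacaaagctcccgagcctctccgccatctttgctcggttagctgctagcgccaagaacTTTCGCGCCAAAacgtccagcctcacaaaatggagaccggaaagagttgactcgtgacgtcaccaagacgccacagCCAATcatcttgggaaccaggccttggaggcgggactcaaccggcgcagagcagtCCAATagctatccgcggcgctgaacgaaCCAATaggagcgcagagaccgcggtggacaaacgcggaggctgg
Mcm6: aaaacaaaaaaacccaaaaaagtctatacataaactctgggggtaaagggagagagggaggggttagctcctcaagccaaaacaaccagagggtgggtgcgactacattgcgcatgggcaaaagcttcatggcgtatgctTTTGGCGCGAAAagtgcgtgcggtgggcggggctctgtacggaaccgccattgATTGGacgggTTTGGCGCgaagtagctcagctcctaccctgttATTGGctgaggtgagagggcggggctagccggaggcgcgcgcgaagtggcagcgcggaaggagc

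Promoter windows were found for 27 of the 33 members, and Ccna2, Aurkb, Kif20a, Tpx2, Mcm4 and Ccne2 had none in the table used. Of 17 mitotic promoters, 15 held a CHR match (88.2%), 15 held CCAAT (88.2%) and 14 held both (82.4%). Of 11 replication promoters, which include a pair of starts for Mcm7, 4 held a CHR match (36.4%), 9 held CCAAT (81.8%) and 3 held both (27.3%). Over the 15007 promoters of genes tested, 20.04% held CHR letters, 37.2% held CCAAT and 7.84% held both. Over all 32851 promoters the shares were 27.6%, 37.4% and 10.7%. E2F letters were in 4 of 11 replication promoters (36.4%), those of Mcm3, Mcm5, Mcm6 and 1 of the Mcm7 starts, and in 1 of 17 mitotic promoters (5.88%), that of Cdk1. Among promoters of genes tested, 3.61% held them, and 2.27% did over all promoters. The adjacent E2F matches of Mcm5 and Mcm6 overlap each other, as do a pair of CCAAT matches of Ube2c, and 2 matches overlapped between motif families. A match is a description of letters and shows no binding.

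The libraries held 17084475 to 21887462 counted reads. The targeted gene Wdr72 was at 102, 37.8, 24.9 and 15.8 CPM in KO 1, 3, 4 and 5, against 173, 245, 327 and 227 CPM in WT 2, 3, 4 and 5, where CPM is reads per 1000000 reads of the library after TMM scaling. Its log2 fold change was -2.43 (SE 0.47, adjusted p = 0.080 in edgeR), and KO 1 kept the most reads. Which part of Wdr72 is deleted in this allele is not stated. KO 5 correlated least with the other libraries across genes, at a mean of 0.964, against 0.980 to 0.983 for the others. Ameloblast markers (8 of 8 detected) summed to 58915 to 80587 CPM in KO and 52542 to 96391 CPM in WT, and markers of pulp and follicle mesenchyme (8 of 8) to 25710 to 42092 CPM in KO and 18896 to 36181 CPM in WT. The RNA was therefore that of a mixture of tissues led by enamel genes. In such bulk RNA, fewer dividing cells and less RNA per dividing cell cannot be told apart.

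No cell cycle or replication gene passed the test between KO and WT. By edgeR, 0 of 21 mitotic and 0 of 12 replication genes passed an adjusted p of 0.05, where 0.0309% of all genes tested did (5 of 16205). At an unadjusted p of 0.05 the count was again 0 of 33, against 15.7% of all genes, and 0 to 2 of 33 in the alternatives run. DESeq2 called 0 of the 33 where it called 2.86% of all genes, and limma voom with quality weights called 0 where it called 6.62%. The adjusted p-values of the 33 genes in edgeR ran between 0.369 for Cdc20 and 0.989 for Ccna2. The 4 KO values did not overlap the 4 WT values in 1 of 33 genes, Tyms, which was higher in KO, where 10.9% of all genes had no overlap in either direction and 5.5% were higher in KO without overlap.

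In the reported fit, the intervals limited the size of a difference in each gene taken singly. The standard error of the log2 fold change lay between 0.10 for Rrm1 and 0.29 for Ube2c, with 57 to 2739 reads per gene and library (median 290.5). The 95% interval of each of the 33 genes lay within a 2-fold change either way, and that of 23 genes within 1.5-fold. The outermost bounds were 0.611-fold for Mki67 on the low side and 1.89-fold for Ube2c on the high side. Some fold changes were larger in the alternatives, whose intervals are not given here. In 7 of the 33 genes an overlapping gene had over 10% as many reads, an uncertainty that the intervals do not cover. The fold changes leaned to one side without passing: 16 of 21 mitotic genes and 8 of 12 replication genes had a log2 fold change above 0, against 53.1% of all genes, and 12 of 21 and 8 of 12 did when scaled by library totals, against 46% of all genes. The median was 0.13 for the mitotic genes, 0.10 for the replication genes and 0.02 for all genes tested. Without KO 5 again 0 of 33 genes passed the adjusted p in edgeR, where 0.333% of all genes did. The counts above 0 then were 13 of 21 and 4 of 12 (49.6% of all genes), and the medians were 0.08, -0.04 and -0.0019. With WT 5 left out instead, 12 of 21 and 7 of 12 were above 0 (53.1% of all genes). The medians were then 0.09, 0.04 and 0.02.

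**Figure D1:**
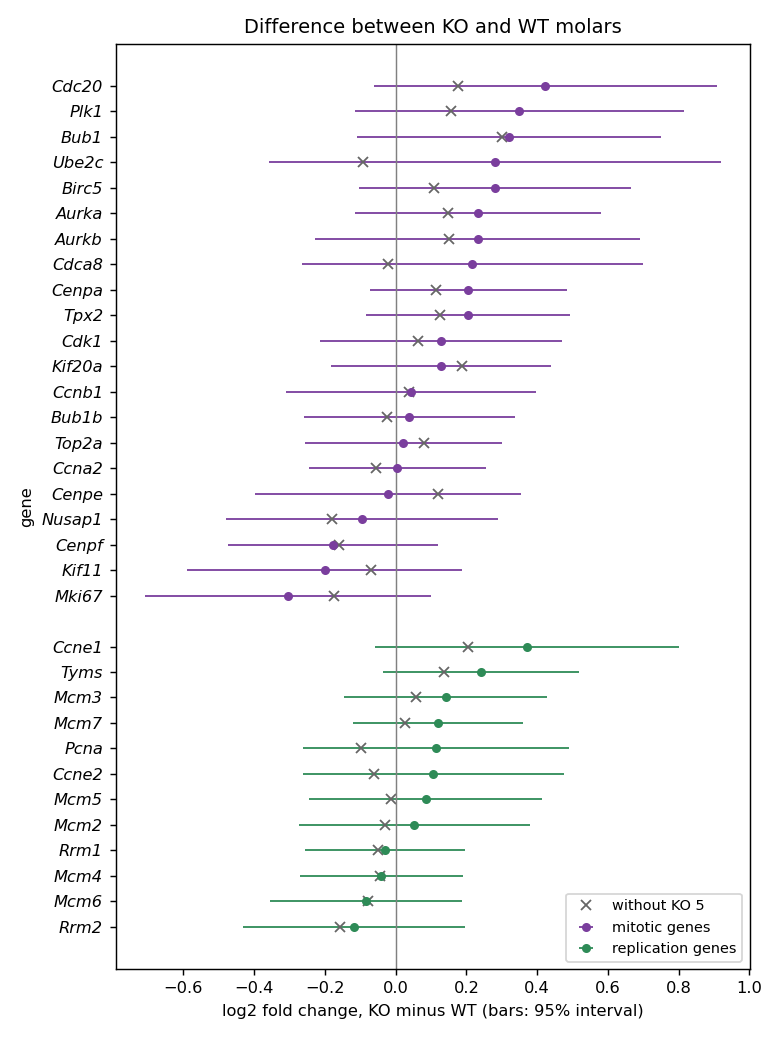
Log2 fold change (KO minus WT, x axis) of each of the 33 genes (y axis), with 95% intervals from edgeR's fit. Purple marks mitotic and green replication genes, and grey crosses give the value without KO 5. Every interval crosses 0 and lies within a 2-fold change, and most crosses lie left of the point.

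Of the general markers of proliferation, Mki67 encodes the Ki-67 protein that coats mitotic chromosomes (GRCm38, chromosome 7, 135689784 to 135716361). It had 60.05, 75.9, 59.1 and 42.4 CPM in KO 1, 3, 4 and 5, against 77.2, 77.9, 86.2 and 52.2 CPM in WT 2, 3, 4 and 5. The groups overlapped, and the lowest library of each group was number 5. Its log2 fold change was -0.31 (SE 0.19, interval -0.71 to 0.10, adjusted p = 0.427 in edgeR), the lowest of the 33, and -0.17 without KO 5. Without WT 5 it was -0.44, and without KO 3 it was -0.45. Top2a, which encodes the topoisomerase that disentangles chromosomes (chromosome 11, 98992943 to 99024189), had 53.9, 60.5, 59.8 and 49.0 CPM in the KO libraries, against 57.2, 61.0, 58.5 and 43.1 CPM in the WT libraries. Here too both groups had their lowest value in library 5. The means were 55.8 ± 5.42 CPM in KO and 55.0 ± 8.04 CPM in WT (SD, n = 4 each), with a log2 fold change of 0.02 (SE 0.13) that is -0.02 under scaling by library totals.

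The 6 cyclins and mitotic kinases, Ccna2, Ccnb1, Cdk1, Aurka, Aurkb and Plk1, had log2 fold changes between 0.0038 and 0.35, with adjusted p-values between 0.430 and 0.989 in edgeR. Group means lay between 6.36 and 17.3 CPM in KO and between 5.41 and 17.2 CPM in WT. Plk1, the Polo kinase that drives entry into mitosis (chromosome 7, 122159439 to 122169873), had 7.38, 6.15, 5.53 and 9.98 CPM in KO 1, 3, 4 and 5, against 5.26, 7.25, 5.55 and 4.63 CPM in WT 2, 3, 4 and 5. KO 5 was the highest library and WT 5 the lowest, and the other 6 were interleaved. Its log2 fold change was 0.35 (SE 0.21) and 0.16 without KO 5. Cdk1, the central mitotic kinase, averaged 14.5 ± 1.71 CPM in KO and 13.3 ± 2.44 CPM in WT, and Ccnb1, its cyclin partner, averaged 11.1 ± 0.794 CPM in KO and 10.8 ± 2.29 CPM in WT (SD, n = 4 each). Neither difference exceeded the spread between libraries. The Aurora kinases Aurka and Aurkb both had 0.23 on the log2 fold change scale, with SE 0.16 and 0.21, and cyclin A2, Ccna2, had 0.0038 (SE 0.11).

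Of the spindle checkpoint kinases, which hold cells until chromosomes are attached, Bub1 (chromosome 2, 127801122 to 127831865) had 5.09, 6.93, 5.94 and 6.29 CPM in the KO libraries, against 5.37, 5.49, 5.32 and 3.22 CPM in the WT libraries. WT 5 stood well below the rest, and KO 1 lay within the WT values. The log2 fold change of Bub1 was 0.32 (SE 0.20, adjusted p = 0.433 in edgeR) and 0.30 without KO 5. Without WT 5 it was 0.17. Bub1b averaged 12.7 ± 1.16 CPM in KO and 12.3 ± 1.69 CPM in WT, with a log2 fold change of 0.04 (SE 0.14).

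The chromosomal passenger complex, which corrects faulty attachments, was represented by Birc5 (survivin) and Cdca8 (borealin) beside its kinase Aurkb. Birc5 (chromosome 11, 117849251 to 117855743) had 11.98, 11.2, 10.3 and 16.7 CPM in KO 1, 3, 4 and 5, against 10.7, 10.3, 11.96 and 8.31 CPM in WT 2, 3, 4 and 5. KO 1 was level with the highest WT library, and KO 5 lay well above it. For Birc5 the log2 fold change was 0.28 (SE 0.18), with 0.11 without KO 5. For Cdca8 the log2 fold change was 0.22 (SE 0.22), and -0.02 without KO 5, and it overlaps another gene with more reads.

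Centromere proteins had no common direction. Cenpa, the histone variant that marks the centromere (chromosome 5, 30666777 to 30674830), had 18.5, 15.5, 16.8 and 21.3 CPM in the KO libraries, against 15.3, 15.8, 16.9 and 14.5 CPM in the WT libraries. KO 1 and KO 5 were above the WT range and KO 3 and KO 4 within it, for a log2 fold change of 0.21 (SE 0.13, adjusted p = 0.439 in edgeR). The log2 fold change was -0.02 (SE 0.17) for Cenpe, a kinetochore motor, and -0.18 (SE 0.14) for Cenpf, a kinetochore protein. Among spindle proteins, Kif11, the motor that pushes the poles apart, had 19.0, 19.6, 19.8 and 12.6 CPM in KO, against 22.4, 22.4, 22.1 and 14.6 CPM in WT. Library 5 was far below the other 3 in each group. For Kif11 the log2 fold change was -0.20 (SE 0.18), against 0.20 (SE 0.13) for Tpx2, which nucleates spindle microtubules, 0.13 (SE 0.14) for the motor Kif20a and -0.09 (SE 0.18) for Nusap1, which bundles microtubules.

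The partners of the anaphase-promoting complex had the largest difference and the widest interval of the 33. Cdc20, its activator (chromosome 4, 118432901 to 118437352), had 13.1, 10.5, 10.5 and 19.9 CPM in KO 1, 3, 4 and 5, against 11.9, 9.45, 11.4 and 7.46 CPM in WT 2, 3, 4 and 5. KO 1 and KO 5 exceeded the WT range, and KO 3 and KO 4 did not. The log2 fold change was 0.42 (SE 0.22, interval -0.06 to 0.91, adjusted p = 0.369 in edgeR), and it was 0.18 without KO 5. Elovl1, on the opposite strand, overlaps Cdc20 and had 489% of its reads, and the level of Cdc20 is uncertain because the strand setting of the counts is unknown. Ube2c, the ubiquitin-conjugating enzyme that works with the complex, had 7.38, 9.22, 8.61 and 18.4 CPM in KO, against 9.41, 9.69, 11.3 and 5.37 CPM in WT. KO 1, 3 and 4 lay below 3 of the 4 WT libraries, and KO 5 lay above all others. For Ube2c the log2 fold change was 0.28 (SE 0.29) with all libraries and -0.09 without KO 5. A processed copy of Ube2c elsewhere in the genome had 9.80% of its reads, so reads may be shared between them.

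**Figure D2:**
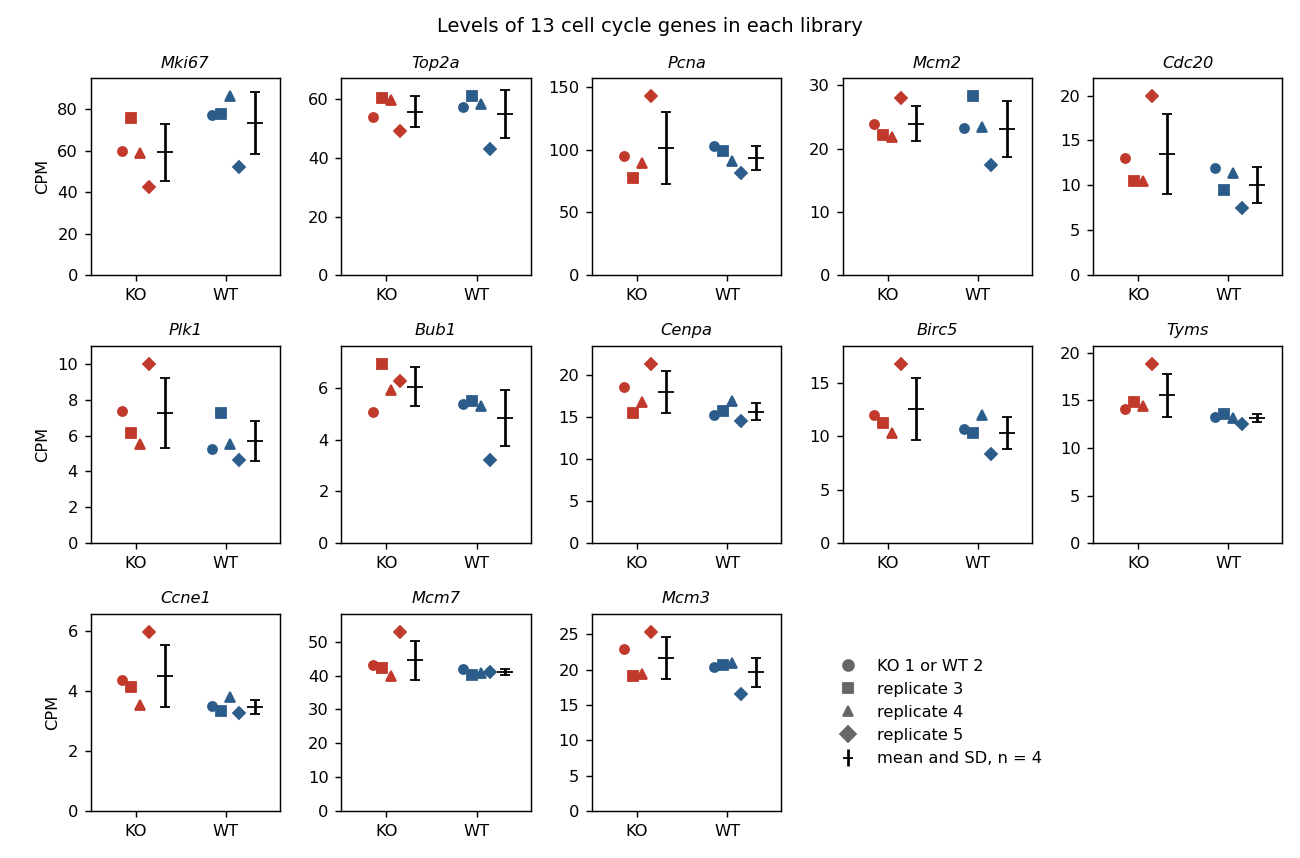
Level (CPM, y axis from 0) of 13 members in each library, KO in red left of WT in blue, with mean and SD (n = 4) in black. Symbols show the library number. In most panels the KO 5 diamond is the highest KO value and the WT 5 diamond the lowest WT value, while Mki67 and Top2a have both diamonds low.

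The helicase subunits Mcm2 to Mcm7 had log2 fold changes between -0.08 and 0.14, 4 of 6 of them above 0, with adjusted p-values of at least 0.598 in edgeR. Their means lay between 21.7 and 46.2 CPM in KO and between 19.6 and 49.0 CPM in WT. Mcm2 (chromosome 6, 88883474 to 88898780) had 24.0, 22.1, 21.9 and 27.9 CPM in KO 1, 3, 4 and 5, against 23.2, 28.2, 23.4 and 17.5 CPM in WT 2, 3, 4 and 5. Its KO values all lay inside the WT range, with a log2 fold change of 0.05 (SE 0.15) that is -0.03 without KO 5. Mcm3 (chromosome 1, 20802968 to 20820312) had 22.9, 19.1, 19.3 and 25.3 CPM in KO, against 20.3, 20.6, 20.9 and 16.6 CPM in WT. KO 1 and KO 5 lay above the WT range and the other KO libraries within it, for a log2 fold change of 0.14 (SE 0.13). Mcm7 (chromosome 5, 138164583 to 138172422) had 43.1, 42.2, 39.96 and 52.9 CPM in KO, against 42.0, 40.2, 40.7 and 41.1 CPM in WT. The WT libraries were within a few percent of each other and KO 5 stood apart, with a log2 fold change of 0.12 (SE 0.11). Mcm7 shares its locus with Cops6, which had 301% of its reads, so its level carries the same uncertainty as that of Cdc20. Mcm4, Mcm5 and Mcm6 had log2 fold changes of -0.04 (SE 0.11), 0.08 (SE 0.15) and -0.08 (SE 0.12).

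Pcna, the sliding clamp (chromosome 2, 132249162 to 132253314), was the member with the highest level per length, at 42.1 RPKM in KO and 38.9 RPKM in WT, where RPKM is CPM per kilobase of the authors' gene length. It had 94.95, 77.5, 89.5 and 142 CPM in KO 1, 3, 4 and 5, against 103, 98.7, 91.1 and 81.2 CPM in WT 2, 3, 4 and 5. KO 5 was far above the rest, and KO 3 was the lowest of the 8. For Pcna the log2 fold change was 0.11 (SE 0.17, adjusted p = 0.765 in edgeR), with -0.10 without KO 5.

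Of the enzymes of nucleotide supply, Tyms, thymidylate synthase (chromosome 5, 30058202 to 30073617), had 14.1, 14.8, 14.4 and 18.8 CPM in the KO libraries, against 13.2, 13.6, 13.2 and 12.6 CPM in the WT libraries. Every KO value exceeded every WT value, by little except in KO 5. Its log2 fold change was 0.24 (SE 0.13, interval -0.04 to 0.52, adjusted p = 0.372 in edgeR), and 0.14 without KO 5. The subunits of ribonucleotide reductase did not follow it, with log2 fold changes of -0.03 (SE 0.10) for Rrm1 and -0.12 (SE 0.14) for Rrm2. Ccne1, a cyclin that starts S phase (chromosome 7, 38097984 to 38107534), had 4.38, 4.13, 3.54 and 5.98 CPM in KO 1, 3, 4 and 5, against 3.49, 3.34, 3.80 and 3.28 CPM in WT 2, 3, 4 and 5. KO 4 lay inside the WT range and the other KO libraries above it. The log2 fold change was 0.37 (SE 0.20, adjusted p = 0.374 in edgeR), with 0.21 without KO 5, and its relative Ccne2 had 0.11 (SE 0.17).

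Set side by side, mitotic and replication genes did not separate the genotypes. The mean log2 CPM of the mitotic genes was 3.74, 3.70, 3.67 and 3.89 in KO 1, 3, 4 and 5, against 3.77, 3.77, 3.73 and 3.32 in WT 2, 3, 4 and 5. That of the replication genes was 4.69, 4.59, 4.55 and 4.93 in the KO libraries, against 4.67, 4.70, 4.65 and 4.44 in the WT libraries. In both sets the values of KO 1, 3 and 4 overlapped those of WT 2, 3 and 4, and the highest library was KO 5 and the lowest WT 5. The mitotic minus replication difference was -0.94 ± 0.075 in KO and -0.97 ± 0.10 in WT (SD, n = 4 each), so the genotypes differed in it by 0.03 log2 units, less than the spread of either group. Together the 33 genes held 0.0724% to 0.0795% of the reads in KO and 0.0635% to 0.0838% in WT.

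**Figure D3:**
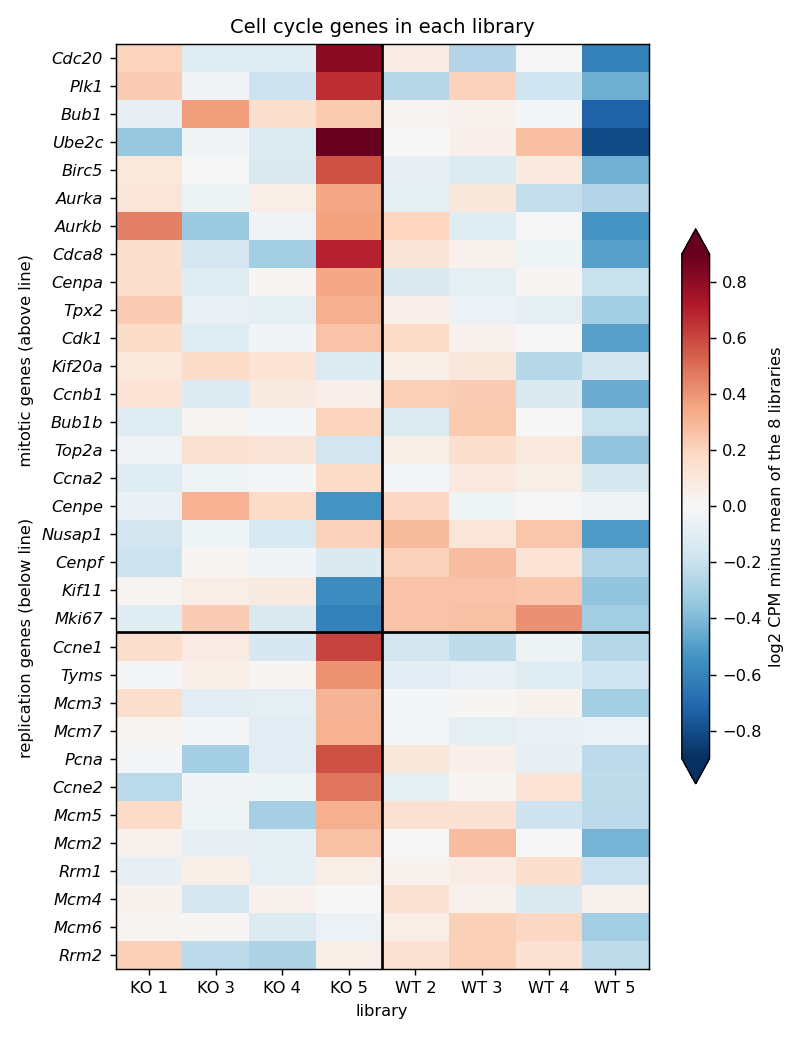
Log2 CPM of each gene minus its mean over the 8 libraries (colour), with mitotic genes above and replication genes below the black line, ordered by fold change, and KO libraries left of WT libraries. WT 5 is the bluest column in most mitotic genes, and KO 5 is red in many genes but blue in Mki67, Kif11 and Cenpe.

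WT 5 and KO 5 held most of the extreme values. WT 5 was the lowest of the 4 WT libraries in 19 of 21 mitotic and 10 of 12 replication genes, and the lowest of all 8 in 17 and 6 of them. KO 5 was the highest of the 4 KO libraries in 12 of 21 mitotic and 8 of 12 replication genes, but the lowest in 5 of the mitotic genes. The same counts over all genes tested are not given here. The extremes can therefore not be called particular to cell cycle genes. Relative to the other KO libraries, KO 5 was lower by 0.67 log2 units in Cenpe, by 0.62 in Kif11 and by 0.61 in Mki67, and higher by 1.12 in Ube2c, 0.81 in Cdc20 and 0.71 in Pcna. Erythroid markers (7 of 8 matched) summed to 4046 CPM in KO 5 and 1316 to 2141 CPM in the other KO libraries, against 651 CPM in WT 5 and 1064 to 1764 CPM in the other WT libraries. Markers of neutrophil precursors summed to 102 to 251 CPM in KO and 89.5 to 249 CPM in WT, where WT 5 was lowest. Markers of odontoblasts and osteoblasts summed to 12561 to 22171 CPM in KO, lowest in KO 5, and 12699 to 24773 CPM in WT, highest in WT 5. That sum was led by Dspp (8710 CPM in KO 5, 21242 CPM in WT 5). Bglap, Ibsp and Sp7 instead had their highest KO value in KO 5, at 2800, 291 and 214 CPM. Phex had its lowest KO value there, at 480 CPM, and Dmp1 lay within the range of the other KO libraries. Mesenchyme markers were at 36181 CPM in WT 5 and 18896 to 20219 CPM in the other WT libraries. Col1a1 made up most of this, at 32304 CPM in WT 5 and 16449 to 17633 CPM in the others. Col3a1, Pdgfra, Pdgfrb and Dcn also had their highest WT value in WT 5. Prrx1 had its lowest there (38.2 CPM), and Lum and Twist1 lay within the range of the other WT libraries. Between the genotypes, 8 of 8 mesenchyme markers had a log2 fold change above 0 (53.1% of all genes did), with a median of 0.50. Of the 8, 6 were higher in KO at an unadjusted p of 0.05 in edgeR (8.7% of all genes). Without overlap, 4 were higher in KO (5.5% of all genes). Oral keratinocyte markers summed to 509 to 770 CPM in KO and 638 to 1161 CPM in WT, a sum led by Krt6a (439 CPM in KO, 607 CPM in WT). Of these markers 7 of 7 tested were lower in KO at an unadjusted p of 0.05 in edgeR, where 6.98% of all genes were. Their median was -1.32 in log2 fold change, and Krt1 fell by 2.64 on the log2 scale (adjusted p = 0.0396 in edgeR). Basal epithelial markers summed to 12878 to 21799 CPM in KO and 13833 to 18426 CPM in WT. Krt5 and Krt14 made up most of this, and Krt14 was highest in KO 5 (13265 CPM). Of the 5 basal markers, 4 had a log2 fold change below 0 and Krt14 had 0.02, where 53.1% of all genes were above 0. Itga6 was lower in KO without overlap (786 CPM in KO, 963 CPM in WT). Markers of dental epithelial progenitors summed to 1033 to 1275 CPM in KO and 651 to 820 CPM in WT. Most of that sum was Igfbp5 (1060 CPM in KO, 647 CPM in WT), which was higher in KO without overlap. Bmi1 was lower in KO without overlap (69.2 CPM in KO, 84.8 CPM in WT), and Sox2, Lgr5 and Lrig1 overlapped between the groups. Over all genes tested, 10.9% had no overlap in either direction. Markers of macrophages and leukocytes summed to 96.4 to 111.5 CPM in KO and 83.5 to 91.4 CPM in WT, where Csf1r (0.39) and Cd68 (0.48) had log2 fold changes above 0 and Ptprc (-0.39) had one below. Those of endothelial cells summed to 286 to 340 CPM in KO and 276 to 296 CPM in WT. Of them Plvap (0.48) and Cdh5 (0.23) had log2 fold changes above 0, and Pecam1 (-0.03), Kdr (-0.05) and Tek (-0.09) had ones below. The part of these cells in the cell cycle values was not tested.

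The fold changes of the mitotic genes also moved with the GC content and length of their transcripts. Across the 21 mitotic genes, which share their libraries and are not independent replicates, the log2 fold change correlated with GC content at Pearson's r = 0.64 (Spearman's rho = 0.64) and with log2 length at r = -0.76 (rho = -0.75). Long or GC-poor transcripts such as Mki67, Cenpf and Kif11 had the lowest values, and short GC-rich ones such as Cdc20, Plk1 and Ube2c were among the highest, with Bub1 (41.0% GC, log2 fold change 0.32) off the line. Without KO 5 the correlations were r = 0.23 (rho = 0.36) with GC and r = -0.44 (rho = -0.37) with length. Across the 12 replication genes r was 0.32 (rho = 0.44) with GC and -0.34 (rho = -0.34) with length, and without KO 5 it was 0.48 (rho = 0.68) with GC and 0.01 (rho = 0.063) with length. All genes tested had r = 0.36 (rho = 0.43) with GC and -0.14 (rho = -0.24) with length, and without KO 5 they had 0.26 (rho = 0.34) and 0.033 (rho = -0.01). With all libraries, genes had a median log2 fold change of -0.19 in the bin around 38.5% GC and 0.25 in the bin around 61.4%. With an offset for GC and length in the fit, 0 of 33 genes passed in edgeR, where 0.16% of all genes did. Then 19 of 21 mitotic and 8 of 12 replication genes were above 0, against 48.6% of all genes, and Mki67 had -0.15, Cdc20 0.18, Bub1 0.45 and Ube2c 0.05. The part of GC content and length in the differences between libraries was not tested further.

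**Figure D4:**
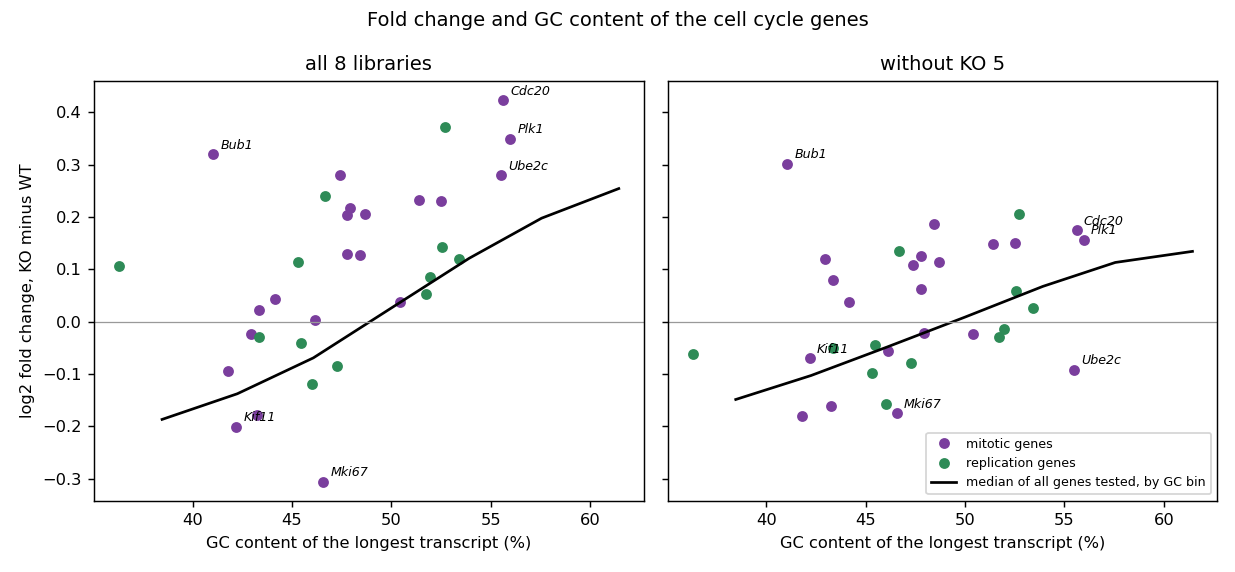
Log2 fold change (KO minus WT, y axis) against GC content of the longest transcript (%, x axis) for mitotic (purple) and replication (green) genes, with all libraries on the left and without KO 5 on the right. The black line is the median of all genes tested by GC bin, which climbs from -0.19 to 0.25 with all libraries and from -0.15 to 0.13 without KO 5.

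Among further cell cycle genes, none of 44 other mitotic genes, 42 other replication genes, 8 G1 cyclins and kinases, 7 CDK inhibitors and 19 pocket, E2F and MuvB genes passed an adjusted p of 0.05 in edgeR. At an unadjusted p of 0.05 the counts were 0 higher and 2 lower of the other mitotic genes, 3 and 1 of the other replication genes, 1 and 0 of the G1 genes, 1 and 0 of the inhibitors and 1 and 1 of the pocket, E2F and MuvB genes, where 8.7% of all genes were higher and 6.98% lower. Of these 120 genes DESeq2 called 1 at an adjusted p of 0.05, Cdkn1c, where it called 2.86% of all genes, and voom called 3, Cdkn1c, Rbl1 and Fen1, where it called 6.62%. Fen1, the flap nuclease of lagging-strand synthesis, averaged 1.26 CPM in KO and 2.02 CPM in WT, and it overlaps Tmem258, which had 2121% of its reads. Median log2 fold changes were 0.08 for the other mitotic genes, 0.05 for the other replication genes, 0.07 for the G1 genes, 0.10 for the inhibitors and -0.07 for the pocket, E2F and MuvB genes.

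Cdkn1c, which encodes the CDK inhibitor p57 (chromosome 7, 143458339 to 143461050), had the widest separation among the regulators. It had 54.6, 56.99, 53.2 and 104 CPM in KO 1, 3, 4 and 5, against 32.8, 38.0, 36.0 and 32.5 CPM in WT 2, 3, 4 and 5. Every KO library exceeded every WT library. The log2 fold change was 0.94 (SE 0.20), but the adjusted p of 0.0897 in edgeR did not pass. Leaving out KO 5 gave 0.66 (adjusted p = 0.0117 in edgeR). The alternatives gave adjusted p-values between 0.00255 and 0.554. Of the related inhibitors, Cdkn1a (p21) averaged 522 ± 111 CPM in KO and 511 ± 40.6 CPM in WT, and Cdkn1b (p27) averaged 110 ± 12.2 CPM in KO and 112 ± 19.4 CPM in WT (SD, n = 4 each). Neither difference exceeded the spread between libraries. Log2 fold changes were 0.31 (SE 0.18) for Cdkn2c (p18) and 0.26 (SE 0.28) for Cdkn3, a phosphatase of CDKs.

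Of the transcriptional regulators, Foxm1, which activates mitotic genes with MuvB (chromosome 6, 128362967 to 128376146), had 10.4, 10.2, 9.53 and 9.98 CPM in the KO libraries, against 8.86, 6.73, 7.31 and 6.44 CPM in the WT libraries. The groups did not overlap, and here KO 5 was in the middle of its group. Its log2 fold change was 0.45 (SE 0.14, adjusted p = 0.187 in edgeR) and 0.46 without KO 5. Rbl1 encodes the pocket protein p107, a partner of E2F repressors (chromosome 2, 157145893 to 157204534). It had 26.8, 29.5, 28.3 and 24.3 CPM in KO 1, 3, 4 and 5, against 45.8, 36.7, 30.9 and 34.4 CPM in WT 2, 3, 4 and 5. All KO values lay below all WT values, with a log2 fold change of -0.44 (SE 0.13, adjusted p = 0.177 in edgeR) and -0.39 without KO 5. The repressor E2f7 had -0.40 (SE 0.20) and the activator E2f1 had 0.31 (SE 0.18).

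The remaining genes with the smallest p-values of their lists did not pass either. Lig1, the ligase that seals replicated DNA, averaged 30.1 ± 4.59 CPM in KO and 22.6 ± 2.0 CPM in WT, with a log2 fold change of 0.41 (SE 0.13, adjusted p = 0.196 in edgeR). The DNA polymerase delta subunits Pold1 and Pold2 had 0.32 (SE 0.14) and 0.35 (SE 0.16). Knl1, a kinetochore scaffold, had -0.50 (SE 0.20), the condensin subunit Smc2 had -0.32 (SE 0.14) and Cdca3 had 0.43 (SE 0.21). Ccnd3, a D-type cyclin, averaged 81.2 ± 18.4 CPM in KO and 64.9 ± 4.99 CPM in WT, its kinase partner Cdk4 averaged 149 ± 35.8 CPM in KO and 124 ± 9.43 CPM in WT, and Ccnd1 averaged 15.9 ± 1.53 CPM in KO and 14.9 ± 2.26 CPM in WT. Their log2 fold changes were 0.32 (SE 0.15), 0.26 (SE 0.15) and 0.10 (SE 0.14), and Cks1b, a small CDK-binding protein, had 0.34 (SE 0.25). Lig1, Ccnd3, Cdk4 and Ccnd1 each overlap another gene with over 10% as many reads.

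**Figure D5:**
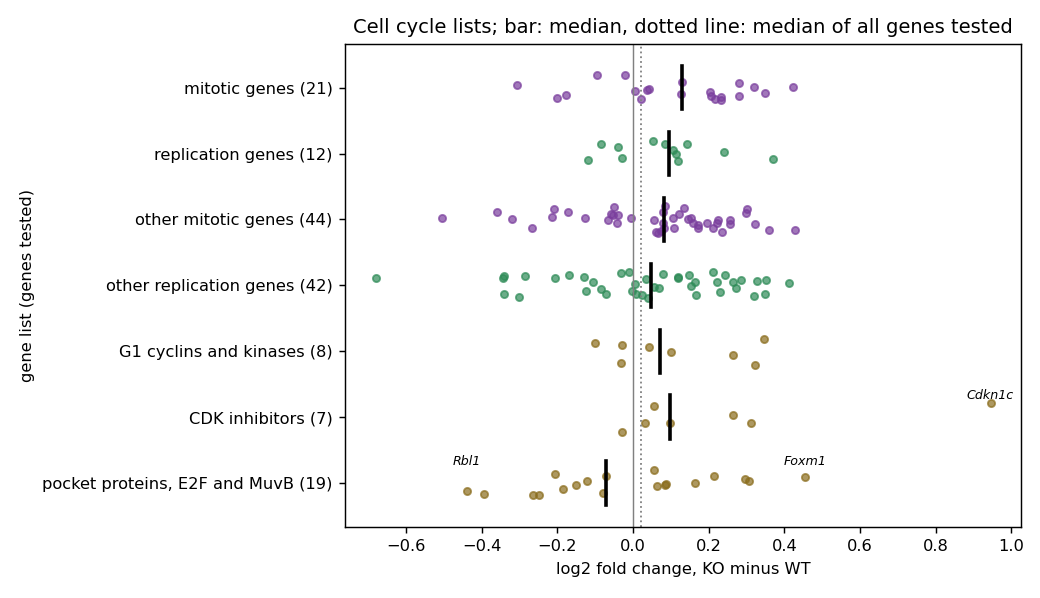
Log2 fold change (KO minus WT, x axis) of every tested gene in 7 cell cycle lists (y axis, number of genes in brackets), with a black bar at each list's median and a dotted line at the median of all genes tested (0.02). Most genes lie within 0.5 of 0, and Cdkn1c at 0.94 stands apart.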

How the data were processed

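The authors deposited 1 table of counts, whole numbers of reads per Ensembl gene and library, not normalised. Per the labels' protocols, RNA went through polyA capture, fragmentation and reverse transcription. The submitters' processing notes name CASAVA and mm39, but the table's coordinates are those of GRCm38: of 54409 gene IDs shared with GENCODE M21, 98.8% had the same start. The aligner, counter and strand setting were not given in the sources used here, and in 7 of the 33 members (Ccna2, Kif20a, Cdc20, Nusap1, Cdca8, Mcm7 and Ccne2) an overlapping gene had over 10% as many reads.

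Genes were filtered with filterByExpr (minimum count 10, minimum total 15), which kept 16205 genes and at least 99.8% of each library's reads; 22656 genes had no read. The comparison of KO with WT used the two-sided quasi-likelihood test of edgeR 4.0.16 in R 4.3.3 (robust, TMM factors 0.936 to 1.06), without covariates. P-values were adjusted by Benjamini-Hochberg over the 16205 genes, with a threshold of 0.05. The biological coefficient of variation was 17.8%. Intervals are 95% from the fit's standard error. Mean log2 CPM used a prior count of 2. Alternatives were DESeq2 1.42.0, limma 3.58.1 (voom), other scalings and filters, a replicate block, an offset for GC content and length (mgcv 1.9.3), and left-out libraries.

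The 33 members and all lists were chosen with earlier results of these data known. Values per library are given for Mki67, Top2a, Pcna and Mcm2, for the 6 mitotic and 4 replication members with the smallest p, and for Kif11 and Ube2c. These 2, the other values given for single members, and Fen1 were picked after their values were seen. From each other list the 3 genes with the smallest p are named, with Cdkn1a, Cdkn1b, Cdkn1c, Ccnd1, E2f1 and Foxm1. Libraries were not paired by replicate number in the reported fit. Same-numbered libraries did not deviate together across genes, which cannot show whether they shared a litter or a batch.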

Additional observations from a re-analysis of the deposited data

Results flagged for a closer look

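In each of the 66 groups of 4 libraries, formed by 33 genes and 2 genotypes, the highest or lowest value was compared with its nearest neighbour, and 7 values stood far from the rest. Chance alone would set apart about 1 in 20 independent groups, but these 66 groups share the same libraries and are not independent. The share of such values over all genes tested is not given here. Of the 7, 3 came from KO 5. Kif11 had 12.6 CPM in KO 5, with the nearest KO library at 19.0 CPM. Ube2c had 18.4 CPM in KO 5, with the nearest KO library at 9.22 CPM. Tyms had 18.8 CPM in KO 5, with the nearest KO library at 14.8 CPM. Another 3 came from WT 5. Bub1 had 3.22 CPM in WT 5, with the nearest WT library at 5.32 CPM. Kif11 had 14.6 CPM in WT 5, with the nearest WT library at 22.1 CPM. Mcm3 had 16.6 CPM in WT 5, with the nearest WT library at 20.3 CPM. The last was Cenpe in WT 2, at 14.2 CPM, with the nearest WT library at 12.4 CPM. WT 5 was low in each of its 3 genes, whereas KO 5 was high in Ube2c and Tyms and low in Kif11.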

How the results depend on the processing

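In 19 alternatives, 0 of 21 mitotic and 0 of 12 replication genes passed an adjusted p of 0.05. At an unadjusted p of 0.05, 0 of 33 as reported, 8 alternatives gave 1 or 2 genes: Cdc20 higher with no filter, Tyms and Bub1 higher with the GC and length offset, Bub1 higher with the block and the offset, Rrm2 lower with voom and without KO 1 and KO 5, Cdc20 higher and Mki67 lower without KO 3, Cdc20 and Ccne1 higher without KO 4, and Mki67 and Cenpf lower without WT 5. The number of genes called among all tested, 5 in the reported fit, was 2 with library totals, 241 with no filter, 464 with DESeq2, 1073 with voom, 26 with the GC and length offset, 11 without KO 1 and KO 5, and 0 to 55 with 1 library left out (0 without KO 3, KO 4, WT 2 or WT 3, 16 without WT 4, 55 without KO 5). With the replicate block it was 1, and 3 with the block and the offset. Same-numbered libraries did not deviate together (correlations -0.143, -0.092 and -0.121), and no KO library correlated best with the WT library of its own number. The count of replication genes above 0, 8 as reported, was 4 with voom, 3 without KO 1 and KO 5, and 4 to 9 with 1 library left out. Their median was -0.065 with voom, -0.054 without KO 1 and KO 5, and -0.04 to 0.16 with 1 library left out. The count of mitotic genes above 0, 16 as reported, was 11 with voom and 11 without KO 1 and KO 5. It was 19 with the GC and length offset, and 12 to 17 with 1 library left out. The mitotic median lay between 0.0093 and 0.19 in all alternatives.

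Of 627 combinations of a named gene and an alternative, 586 kept direction and call, 30 changed sign and 11 became calls (Cdkn1c, Wdr72 and Rbl1). With library totals Top2a was at -0.023 and Cdkn1a at -0.025. With voom Pcna was at -0.12, Mcm2 at -0.13, Cdkn3 at -0.12 and Cdkn1a at -0.18. With the GC and length offset Mcm2 was at -0.017, Mcm7 at -0.0073, Cdkn1a at -0.16 and Cdkn1b at 0.12, and with the block added Cdkn1a was at -0.14 and Cdkn1b at 0.066. Without KO 1 and KO 5 Pcna was at -0.17, Mcm2 at -0.075, Mcm7 at -0.0002, Mcm3 at -0.033, Cdkn3 at -0.14 and Cdkn1a at -0.18. With 1 library left out Top2a ran between -0.078 and 0.079, Pcna between -0.10 and 0.21, Mcm2 between -0.058 and 0.17, Cdkn1a between -0.13 and 0.11, and Cdkn1b between -0.12 and 0.077. The cause was not tested.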

Other observations

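The promoter letters were also counted in the wider lists of mitotic and replication genes that are not among the 33. Of 41 promoters of other mitotic genes, 68.3% held CHR letters, 73.2% held CCAAT, 53.7% held both and 7.32% held E2F letters. Of 38 promoters of other replication genes, 23.7% held CHR letters, 47.4% held CCAAT, 7.89% held both and 31.6% held E2F letters. The shares over the promoters of all genes tested were 20.04%, 37.2%, 7.84% and 3.61%.

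Per length, the mitotic genes lay between 1.003 RPKM (Cenpf) and 7.23 RPKM (Cdc20) in KO, and between 1.11 RPKM (Bub1) and 7.29 RPKM (Mki67) in WT. The replication genes lay between 1.69 RPKM (Ccne1) and 42.1 RPKM (Pcna) in KO, and between 1.31 RPKM (Ccne1) and 38.9 RPKM (Pcna) in WT. Their medians were 2.96 RPKM for mitotic and 6.70 RPKM for replication genes in KO, and 2.69 RPKM and 6.58 RPKM in WT.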
